A study of Mus musculus with 15 samples.

Results

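RNA of mouse E14 embryonic stem (ES) cells was compared between the LINE1 antisense oligonucleotide (ASO) and the control ASO called RC, both given together with the control siRNA, siControl. These are 6 of the 15 libraries of the series, 3 per ASO, and every one was taken because its label names that pair of ASO and siRNA. Cells of the E14Tg2A line, an established ES line grown in serum with LIF, received 5 nmol of ASO by nucleofection, recovered for 7 h, received 100 pmol of siRNA per well and were harvested on day 2 without sorting. The control group is called RC siControl and the other LINE1 siControl, and both underwent nucleofection and lipofection. The same ASO comparison in 6 further libraries made with an siRNA against Dux (RC siDux and LINE1 siDux, 3 each, with the same doses and times) shares no library with the first and served as a second set of values. The description covers genes and repeats beyond the programme of the 2-cell embryo, of which 33 of 39 tested genes rose.

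Cells sense oxygen through prolyl hydroxylases of the Egln family, which mark HIF alpha subunits for destruction by the Vhl ubiquitin ligase when oxygen is present. When oxygen is short, HIF persists, binds the core sequence RCGTG near its targets and raises genes of glucose uptake, glycolysis, mitophagy and vessel growth, and Egln1 and Egln3 are themselves among its targets. Mouse ES cells depend heavily on glycolysis also in ordinary oxygen, and their surface carries adhesion molecules, receptors and transporters that change as they leave the pluripotent state.

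The gene counts came to 10107139, 11956613 and 17392926 reads in RC siControl and to 18321056, 21018387 and 17433835 reads in LINE1 siControl. RC siControl replicate 2 stood apart in its TMM factor, the scaling factor between libraries (0.874, others 0.965 to 1.07), and in the share of its 10 most abundant genes (6.24%, others 4.42% to 5.35%). In edgeR's quasi-likelihood test with Benjamini-Hochberg adjustment, a gene counted as called when its adjusted p was under 0.05. By that rule 1374 of the 14696 genes tested rose with the LINE1 ASO (9.35%) and 1424 fell (9.69%). These counts lean on single libraries: without LINE1 siControl replicate 1, 473 rose and 113 fell. Genes that stayed called with one sign when each of the 6 libraries was left out in turn are called stable here, and they numbered 448 rises (3.05%) and 109 falls (0.742%). When libraries were scaled to the ERCC spike-ins, control RNAs added to the samples, the median log2 change of all genes went from 0.02 to 0.22, 278 genes were called higher and 2 lower, and no member of any list described here was called lower. The labels do not say whether the spike-ins were added per cell or per amount of RNA, which limits what the ERCC-scaled values mean. The spike-ins made up 0.303%, 0.647% and 0.531% of gene counts in RC siControl and 0.333%, 0.504% and 0.509% in LINE1 siControl, so the spread within each group exceeded the difference between them. All falls below are therefore falls relative to the bulk of the RNA. Whether replicates were separate cultures is not stated in the labels. The p-values reflect a spread estimated over all 15 libraries of the series, and that spread may be technical. In a fit on the 6 compared libraries alone, 364 genes rose and 32 fell, fewer than the stable 448 and 109. A stable gene is therefore not always called from those 6 libraries alone. Every LINE1 siControl library lay above every RC siControl library for 16.9% of genes and under it for 14.9%, against which the statements on overlap below can be read; for repeats the shares were 17.9% and 4.5%.

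The ASO's named target was measured in the repeat table. L1Md_A, a young and mobile LINE1 subfamily, stood at 2662, 1338 and 1677 CPM in RC siControl and at 3175, 2826 and 2019 CPM in LINE1 siControl. L1Md_A lies outside the naming rule given below. L1Md_F2 stood at 985, 608 and 692 CPM and at 1237, 1061 and 846 CPM. The groups overlapped for both, and none of the 6 L1Md subfamilies was called, with all 6 fitted changes above 0 (median log2 change 0.51). This rests on single libraries, since all 6 were called higher without RC siControl replicate 1 (median 0.80) and 1 without LINE1 siControl replicate 3. Here CPM stands for counts relative to the gene total of the library (the usual counts-per-million unit), scaled by TMM.

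The 4 promoters printed here belong to the genes with the smallest p among the oxygen sensing core, the HIF targets and a fixed set of genes that includes Bst2, and they are shown because HIF binding has been described at the core ACGTG or GCGTG. Each runs from 250 bases before to 50 after the start in RefSeq on GRCm38.p6, 5′ to 3′ on the gene's strand, with every ACGTG or GCGTG of either strand in capitals. They lie at chr12:54203825-54204124 on the minus strand for Egln3, chr4:101419039-101419338 on the plus strand for the first of 4 starts of Ak4, chr9:108991652-108991951 on the plus strand for Pfkfb4 and chr8:71537423-71537722 on the minus strand for Bst2.
Egln3: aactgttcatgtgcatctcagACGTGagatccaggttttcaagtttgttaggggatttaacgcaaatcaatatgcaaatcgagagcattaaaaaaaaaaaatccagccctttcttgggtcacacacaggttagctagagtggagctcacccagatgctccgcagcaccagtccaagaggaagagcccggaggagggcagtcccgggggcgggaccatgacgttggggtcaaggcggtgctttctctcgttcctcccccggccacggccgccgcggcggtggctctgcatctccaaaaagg
Ak4: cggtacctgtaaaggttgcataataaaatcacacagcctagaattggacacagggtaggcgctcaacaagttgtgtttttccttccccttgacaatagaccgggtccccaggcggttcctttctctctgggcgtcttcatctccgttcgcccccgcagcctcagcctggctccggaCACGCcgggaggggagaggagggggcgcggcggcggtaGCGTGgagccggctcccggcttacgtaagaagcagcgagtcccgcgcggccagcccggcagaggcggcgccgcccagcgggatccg
Pfkfb4: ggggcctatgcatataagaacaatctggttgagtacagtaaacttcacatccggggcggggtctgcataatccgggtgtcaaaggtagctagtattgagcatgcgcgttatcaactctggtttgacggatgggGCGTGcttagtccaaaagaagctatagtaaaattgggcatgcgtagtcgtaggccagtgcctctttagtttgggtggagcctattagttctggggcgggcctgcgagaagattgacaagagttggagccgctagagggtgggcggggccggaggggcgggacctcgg
Bst2: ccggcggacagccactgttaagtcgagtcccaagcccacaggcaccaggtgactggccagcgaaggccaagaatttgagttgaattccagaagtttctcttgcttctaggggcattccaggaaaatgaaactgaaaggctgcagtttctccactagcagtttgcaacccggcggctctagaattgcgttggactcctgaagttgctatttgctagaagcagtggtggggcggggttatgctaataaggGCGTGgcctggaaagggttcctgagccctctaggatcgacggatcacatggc
The Egln3 window held 1 ACGTG, the Ak4 window 2 matches to GCGTG on opposite strands, and the Pfkfb4 and Bst2 windows 1 GCGTG each. The window of Ak4 start 4, not printed, held 2 matches to ACGTG and 1 to GCGTG. Of 32851 promoters in the table, 19.6% held ACGTG, 32.4% GCGTG and 43.8% either. Counted by gene, 28 of the 29 HIF target genes with a promoter held either core (96.6%), as did 6 of 9 of the oxygen sensing core (66.7%) and 66.2% of all tested genes with a promoter. A match describes letters in the window and is not a measured binding site.

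The oxygen sensors of the Egln family fell. Egln3, the hydroxylase most strongly induced by HIF, stood at 34.7, 46.9 and 37.5 CPM in RC siControl and at 12.7, 18.7 and 13.8 CPM in LINE1 siControl (39.7 ± 6.40 and 15.1 ± 3.17, mean ± SD, n = 3). The highest LINE1 siControl library lay well under the lowest of RC siControl, and the log2 change was -1.39 ± 0.27 (SE, adjusted p = 0.00431). Egln1, the main hydroxylase in ordinary oxygen, was at 34.8, 48.3 and 30.4 CPM against 22.1, 24.4 and 20.7 CPM, again without overlap (log2 change -0.75 ± 0.16, adjusted p = 0.008). Both were stable. Egln2 was called lower as well (-0.59 ± 0.18, adjusted p = 0.033), but not without RC siControl replicate 2, which alone reached 79.2 CPM (adjusted p = 0.162 without it), nor without LINE1 siControl replicate 1 or 2 (0.15 and 0.0895). In bulk RNA, fewer cells of a type and less RNA per cell cannot be told apart.

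The HIF subunits themselves did not pass the test. Hif1a was at 186, 206 and 207 CPM in RC siControl and at 243, 234 and 217 CPM in LINE1 siControl, higher in every LINE1 library but with adjusted p = 0.0745. Epas1, which encodes HIF-2 alpha, was at 52.7, 28.9 and 47.0 CPM against 27.0, 33.6 and 36.0 CPM, with overlapping groups (adjusted p = 0.126). Of the 10 genes of the oxygen sensing core the Egln genes were the 3 called, all lower, and the fitted changes split evenly, 5 above and 5 under 0.

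Among the 37 tested members of the HIF target list 10 fell (27.0%) and 1 rose (2.70%), against 9.69% and 9.35% of all genes. The list leaves out Egln1, Egln3, Hk2, Pgk1 and Ldha, which were counted in other lists and were stable falls there. Its median log2 change was -0.23 against 0.02 for all genes. Under ERCC scaling that median turned to 0.05, which is -0.17 relative to all genes. The count of falls was 1 without LINE1 siControl replicate 1, 5 without replicate 2 and 3 without RC siControl replicate 2, and that of rises 3 without LINE1 siControl replicate 3 or RC siControl replicate 2. Ak4, an adenylate kinase of the mitochondrial matrix, was the stable fall of this list. It was at 131, 136 and 117 CPM in RC siControl and 88.7, 95.8 and 90.1 CPM in LINE1 siControl, tightly grouped in both (log2 change -0.48 ± 0.09, adjusted p = 0.00261). Bnip3, a receptor that marks mitochondria for removal, was at 159, 308 and 146 CPM against 64.8, 92.9 and 64.1 CPM (-1.46 ± 0.35, adjusted p = 0.0132). The groups did not overlap, but RC siControl replicate 2 was about as high as the rest of its group together, and the change was -1.04 without it (adjusted p = 0.056) and -1.36 without LINE1 siControl replicate 1 (adjusted p = 0.0778).

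Pfkfb4, a bifunctional enzyme that sets the level of the glycolytic activator fructose 2,6-bisphosphate, went the other way. It was at 3.69, 2.01 and 2.02 CPM in RC siControl and 6.10, 7.06 and 4.54 CPM in LINE1 siControl, without overlap (log2 change 1.24 ± 0.24, adjusted p = 0.00462), and was the one stable rise of the list. Several of the best-known targets did not pass: Vegfa, the vessel growth factor, was at 32.3, 40.3 and 42.0 CPM against 36.6, 33.4 and 22.8 CPM (adjusted p = 0.324). Ddit4, an inhibitor of mTORC1, spanned 97.1 to 163 CPM in RC siControl and 101 to 163 CPM in LINE1 siControl (adjusted p = 0.996). Pdk1, which holds back pyruvate dehydrogenase, was at 258, 271 and 259 CPM against 188, 208 and 179 CPM, and its call (-0.45 ± 0.15, adjusted p = 0.0457) was lost whichever of the 6 libraries was left out (0.0642 to 0.16). The hormone gene Adm, chosen after its values were seen as the largest fall of the list (-1.55 ± 0.47, adjusted p = 0.032), rested on 17, 26 and 35 counts in RC siControl and 14 in each LINE1 siControl library, and was not called without LINE1 siControl replicate 1 (adjusted p = 0.115) or 2 (0.106) or RC siControl replicate 2 (0.084).

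**Figure D1:**
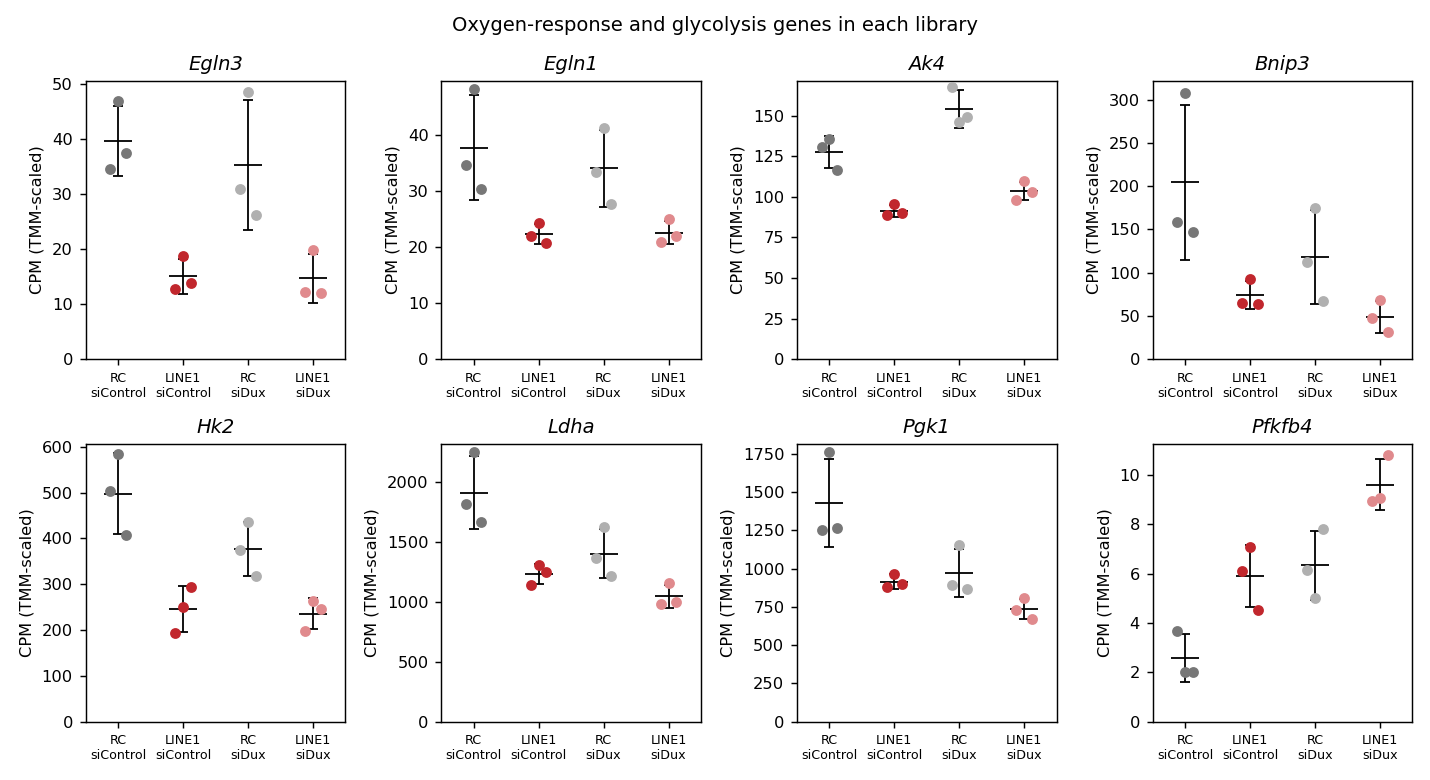
Level of 8 oxygen-response and glycolysis genes in each library (vertical axis, CPM scaled by TMM, from 0) for RC and LINE1 ASO under siControl and siDux; points are libraries, bars the mean ± SD of 3. Under siControl the LINE1 libraries lie under all RC libraries for Egln3 (12.7 to 18.7 against 34.7 to 46.9 CPM) and 6 further genes, and above them for Pfkfb4.

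Glycolysis genes moved down as a group: 15 of 23 tested fell (65.2%) and none rose, with a median log2 change of -0.47 that kept its sign under ERCC scaling (-0.29). Their summed level was 17130, 20300 and 16470 CPM in RC siControl and 12350, 13760 and 13430 CPM in LINE1 siControl, a ratio of 0.734 with no overlap (exact permutation p = 0.1, two-sided, the smallest that 3 against 3 allows). The call count was 4 without LINE1 siControl replicate 1, and 2 in a fit on the 6 compared libraries alone. Hk2, the hexokinase that traps glucose at the first step, changed most: 503, 584 and 407 CPM became 193, 251 and 294 CPM (-1.02 ± 0.18, adjusted p = 0.00209). Tpi1, which interconverts the triose phosphates, was at 678, 927 and 679 CPM against 465, 522 and 488 CPM (-0.63 ± 0.13, adjusted p = 0.00495). Both were stable, as were the later enzymes Pgk1 and Ldha.

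Pgk1, which makes the first ATP of the pathway, was at 1254, 1761 and 1268 CPM in RC siControl and 879, 968 and 900 CPM in LINE1 siControl (-0.64 ± 0.14, adjusted p = 0.0073). Ldha, which turns pyruvate into lactate, was at 1815, 2253 and 1662 CPM against 1137, 1304 and 1252 CPM (-0.63 ± 0.13, adjusted p = 0.0055). For both the groups were well apart and RC siControl replicate 2 was the highest library. The glucose transporters differed: Slc2a1 was at 797, 924 and 766 CPM against 506, 623 and 663 CPM (-0.47 ± 0.12, adjusted p = 0.014; 0.0885 without LINE1 siControl replicate 1). Slc2a3 was at 1369, 1457 and 1467 CPM against 1427, 1491 and 1204 CPM, with overlapping groups (adjusted p = 0.754).

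Level and transcript length moved with these results. The glycolysis genes are abundant and have short annotated transcripts (median 372 CPM and 743 bases, against 20.9 CPM and 1480 bases over all tested genes with a value). Length here is the median over all annotated transcripts of a gene and can differ from that of its main mRNA. Over all genes, split by level into 5 equal bins, 25.3% of the most abundant bin fell and 4.90% rose, while 0.782% of the least abundant bin fell and 11.9% rose. By length, 17.8% of the shortest bin fell and 14.1% of the longest rose. The part of level and length in the list results was not tested.

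Markers of ES cells fell beside the glycolysis genes. The summed level of 10 such markers ran from 5327 to 9340 CPM in RC siControl and from 4544 to 5005 CPM in LINE1 siControl, and 6 of the 10 were called lower. Pou5f1, the central pluripotency factor, was at 1129, 1567 and 1061 CPM against 712, 797 and 886 CPM (log2 change -0.65 ± 0.13, adjusted p = 0.00445), and it and Utf1, a chromatin protein of undifferentiated cells (-0.70 ± 0.14, adjusted p = 0.00558), were stable. Without LINE1 siControl replicate 1 these remained as the 2 called, and a fit on the 6 compared libraries alone called none of the 10. The top of the RC siControl range was replicate 2, where Dppa5a stood at 3311 CPM (1227 and 906 CPM in replicates 1 and 3). The part of the marker change in the metabolic results was not tested.

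Other pathways of central metabolism fell in smaller steps. In the TCA cycle and pyruvate list 13 of 39 fell (33.3%) and 1 rose, median -0.21 (0.01 under ERCC scaling, -0.20 relative to all genes). In pentose phosphate and nucleotide synthesis 17 of 37 fell (45.9%) and 1 rose, median -0.25. The falls numbered 1 and 2 without LINE1 siControl replicate 1, 1 and 5 without replicate 2, and 7 and 9 without RC siControl replicate 2. Pdhb, a subunit of the pyruvate dehydrogenase complex, was at 236, 328 and 236 CPM in RC siControl and at 193, 191 and 190 CPM in LINE1 siControl (-0.48 ± 0.10, adjusted p = 0.00762). Adsl, of purine synthesis, was at 182, 202 and 187 CPM against 129, 142 and 156 CPM (-0.42 ± 0.08, adjusted p = 0.00359), and Tkt, the transketolase of the pentose phosphate pathway, at 480, 561 and 500 CPM against 360, 379 and 418 CPM (-0.41 ± 0.08, adjusted p = 0.0052). None of the 3 overlapped, and all were stable, but a fit on the 6 compared libraries alone called no member of either list.

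Antioxidant genes showed one rise against 10 falls among 38 (26.3% lower, median -0.24). The rise was stable: Gpx3, a secreted glutathione peroxidase, was at 24.4, 29.5 and 26.3 CPM in RC siControl and 48.5, 52.1 and 50.6 CPM in LINE1 siControl (log2 change 0.91 ± 0.16, adjusted p = 0.00231), nearly doubling without overlap. Sod1, the cytosolic superoxide dismutase, was at 428, 770 and 366 CPM against 276, 302 and 323 CPM (-0.79 ± 0.19, adjusted p = 0.0126), with RC siControl replicate 2 far above its group, and was not called without LINE1 siControl replicate 1 (adjusted p = 0.0727). No fall in the list was stable: 0 were called without LINE1 siControl replicate 1, 2 without replicate 2, 5 without RC siControl replicate 2 and 15 without RC siControl replicate 3.

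Lipid handling and lysosomal genes included rises. Among 26 genes of lipid uptake, storage and lipoproteins 4 rose (15.4%) and 1 fell, with 7 rises and 2 falls without LINE1 siControl replicate 3. Plin2, the coat protein of lipid droplets, was at 23.1, 34.8 and 27.1 CPM in RC siControl and 58.6, 48.5 and 50.2 CPM in LINE1 siControl (log2 change 0.89 ± 0.18, adjusted p = 0.00567). Cubn, an endocytic receptor for lipoproteins and vitamin carriers, was at 2.97, 1.53 and 2.55 CPM against 8.30, 5.19 and 5.69 CPM (1.43 ± 0.24, adjusted p = 0.00152). Apob, the structural protein of lipoprotein particles, also rose (1.60 ± 0.26, adjusted p = 0.00149). These 3 were stable and their groups did not overlap. In fatty acid oxidation 3 of 27 rose (11.1%, near the 9.35% of all genes) and 5 fell (18.5%, against 9.69%). The median log2 change of that list was -0.13. Its stable member was Cpt1c, a brain-type carnitine palmitoyltransferase, from 38.9, 35.8 and 32.4 CPM to 59.7, 56.4 and 53.8 CPM (0.67 ± 0.09, adjusted p = 0.00018).

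Of 41 genes of lysosome and autophagy 11 rose (26.8%) and 2 fell, with a median log2 change of 0.22. The rises numbered 2 without LINE1 siControl replicate 1, 3 without replicate 2, 7 without RC siControl replicate 1 and 17 without LINE1 siControl replicate 3. Tpp1, a lysosomal peptidase, was at 51.0, 43.6 and 53.8 CPM in RC siControl and 112, 99.2 and 72.6 CPM in LINE1 siControl (0.93 ± 0.15, adjusted p = 0.000963). Gaa, which breaks down glycogen in lysosomes, was at 105, 104 and 91.2 CPM against 177, 180 and 122 CPM (0.68 ± 0.13, adjusted p = 0.0034). In both, LINE1 siControl replicate 3 was the lowest of its group and still above every RC siControl library. The 2 falls were Gusb, a lysosomal glucuronidase, and Tfeb, the transcription factor known for driving lysosomal genes (-0.61 ± 0.19, adjusted p = 0.0328), which is named outside the rule, after its values were seen, and whose groups overlapped. Neither fall was called without LINE1 siControl replicate 1 or 2, and 4 falls were called without RC siControl replicate 3.

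**Figure D2:**
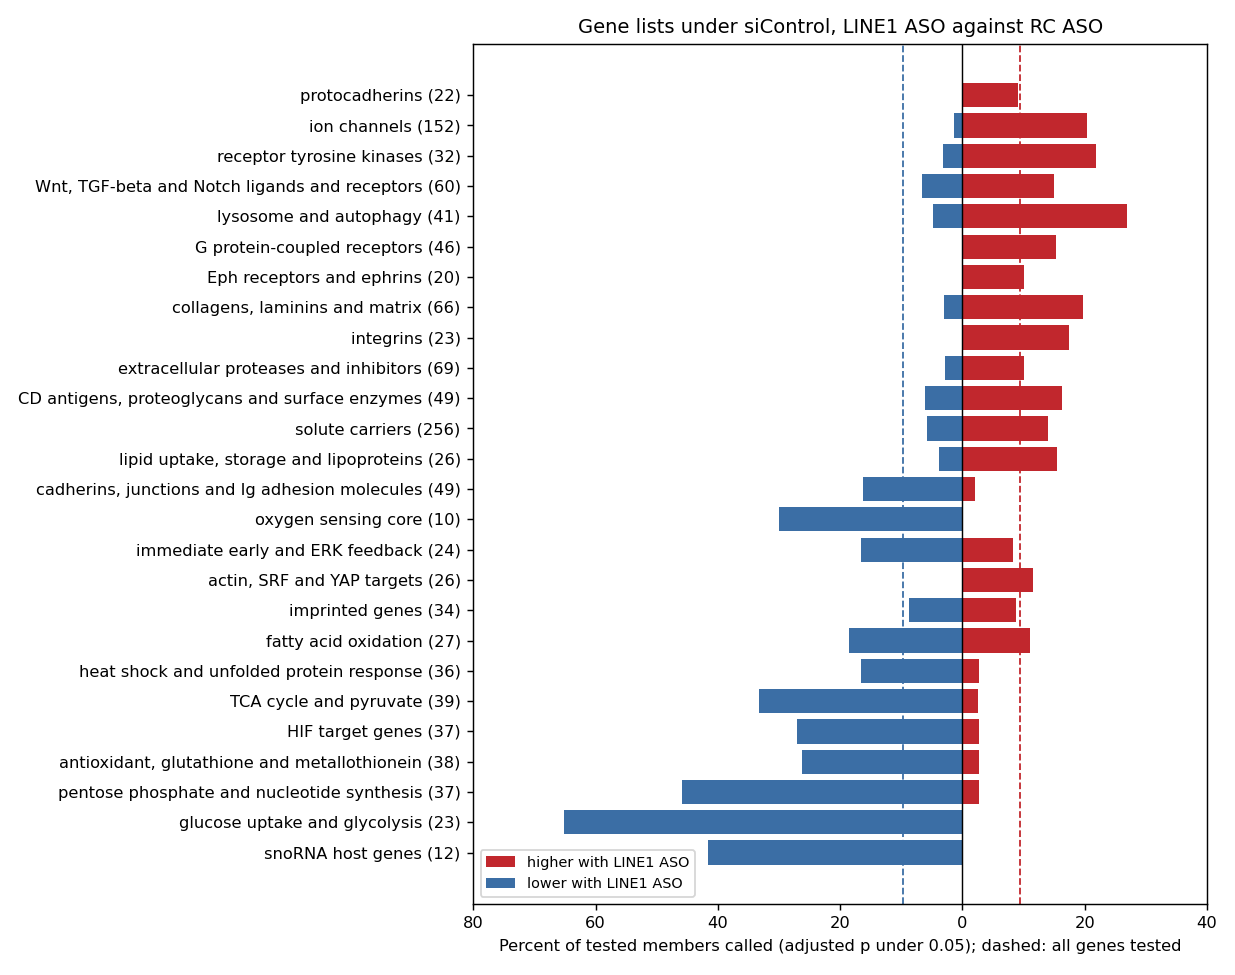
Percent of tested members of each gene list called higher (red, to the right) or lower (blue, to the left) with the LINE1 ASO under siControl, ordered by median log2 change; numbers in brackets are members tested and dashed lines the shares of all genes tested. Glucose uptake and glycolysis reaches 65.2% lower, and lysosome and autophagy 26.8% higher.

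Ion channels were the surface group with the most stable rises by count, in a list larger than all others but the solute carriers. Of 249 channel genes listed, 152 were tested, and of these 31 rose (20.4%) and 2 fell, with 18 stable rises and a median log2 change of 0.31. The rises numbered 18 without LINE1 siControl replicate 1, 20 without replicate 2 and 15 under ERCC scaling. The tested channels are scarce and have long annotated transcripts (median 2.42 CPM and 2566 bases), like the genes that rose in general. P2rx7, the ATP-gated cation channel of immune cells, was at 6.56, 6.32 and 4.28 CPM in RC siControl and 38.3, 29.6 and 14 CPM in LINE1 siControl (2.29 ± 0.32, adjusted p = 0.000387). Scn3b, a beta subunit of voltage-gated sodium channels, was at 2.97, 1.72 and 2.08 CPM against 14.3, 14.3 and 12.6 CPM (2.62 ± 0.22, adjusted p = 4.13e-06). The LINE1 libraries were close together for Scn3b and spread widely for P2rx7, whose replicate 3 was lowest.

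At the scarce end, Cacna1e, the R-type calcium channel subunit, had 2, 3 and 2 counts in RC siControl and 53, 78 and 56 in LINE1 siControl (log2 change 4.00 ± 0.41, adjusted p = 2.14e-05). P2rx6, another ATP-gated channel subunit, had 1, 3 and 1 counts against 41, 49 and 22 (3.72 ± 0.56, adjusted p = 0.00078). Fold changes of such genes depend on a handful of counts in the control libraries.

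Receptors of growth factors rose in part. Of 32 receptor tyrosine kinases 7 rose (21.9%) and 1 fell, and Tek and Egfr were stable. Egfr, the epidermal growth factor receptor, was at 6.67, 4.31 and 6.42 CPM in RC siControl and 17.8, 16.1 and 16.2 CPM in LINE1 siControl (1.52 ± 0.24, adjusted p = 0.000941). Tek, the angiopoietin receptor, was at 22.1, 22.0 and 18.8 CPM against 42.1, 42.7 and 35.5 CPM (0.94 ± 0.14, adjusted p = 0.000463). Neither pair of groups overlapped. The count of rises was 2 without LINE1 siControl replicate 1 and 3 without replicate 2 or RC siControl replicate 2.

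Among 60 ligands and receptors of the Wnt, TGF-beta and Notch pathways 9 rose (15.0%) and 4 fell, and the rises numbered 3 without LINE1 siControl replicate 1 or 2. Wnt9a, a secreted Wnt ligand, was at 2.67, 2.49 and 2.50 CPM in RC siControl and 12.8, 12.4 and 9.84 CPM in LINE1 siControl (2.20 ± 0.31, adjusted p = 0.000447). The type I TGF-beta receptor Tgfbr1 was at 55.4, 46.0 and 68.8 CPM against 93.9, 88.7 and 85.4 CPM (0.65 ± 0.14, adjusted p = 0.00643), and the receptor Notch1 at 51.6, 32.5 and 41.7 CPM against 64.0, 64.3 and 59.8 CPM (0.58 ± 0.13, adjusted p = 0.00848). All 3 were stable. Inhbb, the activin beta B chain, was called lower (33.0, 39.0 and 22.9 against 9.28, 14.6 and 19.1 CPM, -1.14 ± 0.28, adjusted p = 0.014) except without LINE1 siControl replicate 1 (0.0851) or 2 (0.0507).

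Of 49 CD antigens, proteoglycans and surface enzymes 8 rose (16.3%) and 3 fell. Sdc4, a heparan sulfate proteoglycan of adhesion sites, was at 46.9, 63.6 and 38.0 CPM in RC siControl and 136, 130 and 114 CPM in LINE1 siControl (1.36 ± 0.17, adjusted p = 0.000163). Cd55, which protects cells from complement, was at 6.36, 5.36 and 4.99 CPM against 11.5, 10.5 and 9.20 CPM (0.92 ± 0.15, adjusted p = 0.00133). Cd109, a GPI-anchored binder of TGF-beta, was at 12.1, 11.2 and 13.8 CPM against 25.7, 25.4 and 26.3 CPM (1.05 ± 0.17, adjusted p = 0.00149). All were stable, with every LINE1 library above every RC library. The rises in the list numbered 4 without LINE1 siControl replicate 1 and 5 without replicate 2.

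Bst2, the interferon-inducible protein tetherin that holds budding viruses at the membrane, was the stable fall of that list. It was at 53.5, 86.6 and 66.3 CPM in RC siControl and 31.6, 35.0 and 43.4 CPM in LINE1 siControl (log2 change -0.91 ± 0.15, adjusted p = 0.00154), without overlap. The death receptor gene Fas was among the stable rises of the list, with 0.513, 0.67 and 0.416 CPM against 2.87, 2.28 and 2.47 CPM (2.28 ± 0.40, adjusted p = 0.00214); it lies outside the naming rule and was chosen after its values were seen.

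**Figure D3:**
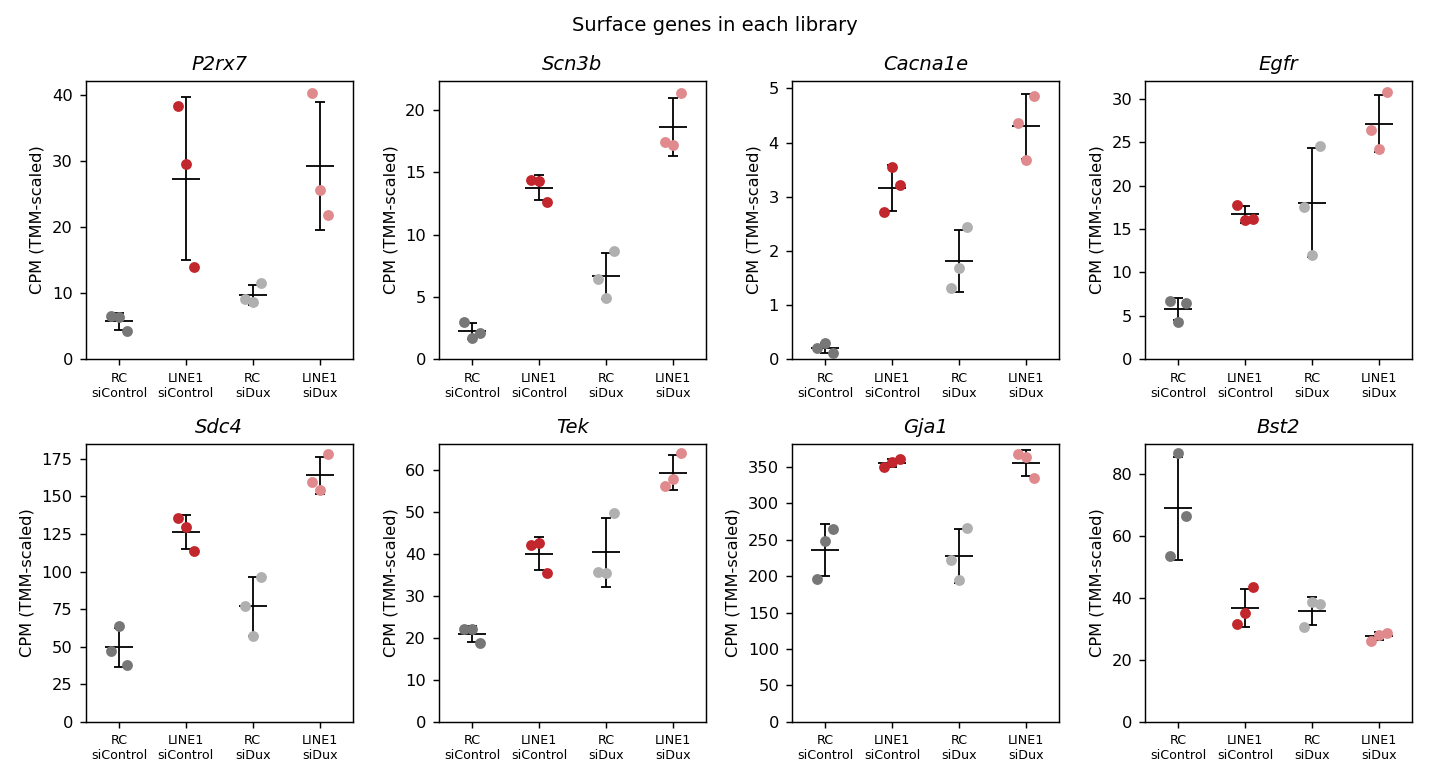
Level of 8 surface genes in each library (vertical axis, CPM scaled by TMM, from 0) for RC and LINE1 ASO under siControl and siDux; points are libraries, bars the mean ± SD of 3. Under siControl the LINE1 libraries lie above all RC libraries for 7 genes, such as Sdc4 (114 to 136 against 38.0 to 63.6 CPM), and under them for Bst2.

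Adhesion and junction genes moved both ways. Of 49 cadherins, junction and immunoglobulin-type adhesion genes 1 rose (2.04%) and 8 fell (16.3%). The rise, Gja1, encodes connexin 43, the main gap junction protein of ES cells, and went from 196, 248 and 265 CPM in RC siControl to 350, 358 and 361 CPM in LINE1 siControl (0.59 ± 0.12, adjusted p = 0.00524, stable). Among the falls were the connexin genes Gjc1 and, named after its values were seen, Gjb5. Epcam, an epithelial adhesion molecule, was at 170, 228 and 180 CPM against 129, 136 and 154 CPM (-0.46 ± 0.10, adjusted p = 0.00744; 0.0538 without LINE1 siControl replicate 1). E-cadherin, Cdh1, was at 465, 464 and 508 CPM against 473, 476 and 496 CPM, with overlapping groups and a log2 change of 0.01 ± 0.08 (adjusted p = 0.953). Without LINE1 siControl replicate 1 none of the list was called lower, without replicate 2 1 was, and without RC siControl replicate 1 or 2 5 were. The rises numbered 4 without RC siControl replicate 3 and 2 without LINE1 siControl replicate 3 or RC siControl replicate 2.

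Of 23 integrin genes tested 4 rose (17.4%) and none fell, 3 of them stable. Itgav, the alpha V chain of vitronectin receptors, was at 37.3, 32.4 and 41.4 CPM in RC siControl and 63.2, 55.5 and 55.2 CPM in LINE1 siControl (0.64 ± 0.12, adjusted p = 0.00344). Itgb4, the laminin-binding chain of hemidesmosomes, was at 10.7, 13.9 and 9.27 CPM against 19, 19.3 and 15.4 CPM (0.68 ± 0.15, adjusted p = 0.00901), and Itga2b, the platelet alpha IIb chain, at 2.56, 2.87 and 1.90 CPM against 5.18, 4.74 and 4.31 CPM (0.98 ± 0.21, adjusted p = 0.00744). The rises numbered 6 without RC siControl replicate 3, with 1 fall. Of 20 Eph receptors and ephrins 2 rose (10%, near the 9.35% of all genes) and none fell. Neither rise was stable, and the count was 0 without LINE1 siControl replicate 1 and 5 without replicate 3.

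Of 46 G protein-coupled receptors 7 rose (15.2%) and none fell, 3 of them stable. Lpar6, a lysophosphatidic acid receptor, was at 11.1, 9.48 and 15.3 CPM in RC siControl and 29.5, 23.4 and 28.5 CPM in LINE1 siControl (1.16 ± 0.20, adjusted p = 0.00201). Celsr1, a cadherin-type receptor of planar polarity, was at 21.5, 15.0 and 19.7 CPM against 33.5, 34.1 and 23.8 CPM (0.70 ± 0.14, adjusted p = 0.00534). Ltb4r2, a leukotriene receptor, was at 0.513, 0.766 and 0.297 CPM against 2.61, 2.64 and 2.36 CPM (2.35 ± 0.44, adjusted p = 0.0034). None of the 3 overlapped. Without LINE1 siControl replicate 1, 3 of the list were called higher, and without RC siControl replicate 3, 2 were called lower.

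Solute carriers, the largest list with 256 tested members, had 36 rises (14.1%) and 15 falls (5.86%), 14 and 2 of them stable. Slc4a11, a transporter of the corneal endothelium, was at 18.4, 12.6 and 14.6 CPM in RC siControl and 52.9, 53.1 and 45.3 CPM in LINE1 siControl (1.73 ± 0.16, adjusted p = 5.58e-06). Slc4a8, a sodium-driven bicarbonate exchanger, was at 19.7, 23.6 and 20.6 CPM against 42.3, 40.6 and 32.6 CPM (0.86 ± 0.12, adjusted p = 0.000463). Slc26a2, a sulfate transporter, was at 30.7, 24.8 and 32.1 CPM against 46.4, 47.4 and 51.1 CPM (0.72 ± 0.13, adjusted p = 0.00258). The groups stood apart in all 3. Without LINE1 siControl replicate 1 the counts were 14 and 2, without replicate 2 19 and 3, and without RC siControl replicate 2 23 and 10.

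Matrix genes and their modifiers also included stable rises. Of 66 collagens, laminins and other matrix genes 13 rose (19.7%), 6 of them stable, and 2 fell. Col6a4, a collagen VI chain, was at 7.28, 9.86 and 5.17 CPM in RC siControl and 17.3, 17.9 and 12.7 CPM in LINE1 siControl (1.13 ± 0.19, adjusted p = 0.00184). The rises numbered 7 without LINE1 siControl replicate 1, and the falls 5 without RC siControl replicate 3. Of 69 extracellular proteases and inhibitors 7 rose (10.1%), close to the 9.35% of all genes, and 2 fell. Serpine2, an inhibitor of thrombin and plasminogen activators, was at 21, 21.4 and 22.1 CPM against 63.8, 59.6 and 56.4 CPM (1.48 ± 0.19, adjusted p = 0.000185), among the tightest groups of any gene named.

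Early response genes gave single changes rather than a group shift. In the list of immediate early and ERK feedback genes 2 of 24 rose (8.33%, near the 9.35% of all genes) and 4 fell (16.7%, against 9.69%). Jun, an AP-1 subunit, was at 9.13, 11.7 and 12.1 CPM in RC siControl and 30.8, 26.8 and 22.4 CPM in LINE1 siControl (1.27 ± 0.17, adjusted p = 0.000241), and its partner Fosl1 at 0.82, 0.67 and 1.25 CPM against 2.92, 2.96 and 3.11 CPM (1.64 ± 0.27, adjusted p = 0.00149). Etv4, an ETS factor downstream of ERK, fell from 96.3, 84.9 and 81.0 CPM to 59.8, 65.7 and 67.6 CPM (-0.44 ± 0.09, adjusted p = 0.00556). All 3 were stable, while 1 fall was called without LINE1 siControl replicate 1 or 2. Of 26 genes of the actin, SRF and YAP target list 3 rose (11.5%, near the 9.35% of all genes) and none fell, though 3 fell without LINE1 siControl replicate 3 and 2 without RC siControl replicate 3. The matricellular gene Cyr61 was at 20.8, 23.6 and 30.5 CPM against 51.4, 40.8 and 51.5 CPM (0.93 ± 0.18, adjusted p = 0.00445), and Amotl2, which restrains YAP, at 89.2, 78.8 and 109 CPM against 168, 159 and 134 CPM (0.73 ± 0.15, adjusted p = 0.00618).

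The largest stable rises outside the 2-cell list, among named genes of at least 5 CPM in the higher group, included Arhgef33, Cpz, Matn1, Xist, Alox5, Plcd4, Scn3b, Vwce, Rgs14, P2rx7 and Sbsn. Arhgef33, of the guanine nucleotide exchange factors, had 2, 5 and 8 counts in RC siControl and 134, 140 and 93 in LINE1 siControl (3.92 ± 0.30, adjusted p = 3.54e-06). Cpz, a carboxypeptidase that binds Wnt, was at 1.33, 1.82 and 1.37 CPM against 13.1, 12.1 and 11.4 CPM (3.02 ± 0.28, adjusted p = 6.78e-06). Both were low in every control library and several times higher in every LINE1 library.

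Alox5, the lipoxygenase that starts leukotriene synthesis, was at 1.95, 1.44 and 2.44 CPM in RC siControl and 13.5, 12.3 and 13.1 CPM in LINE1 siControl (2.70 ± 0.31, adjusted p = 7.04e-05). Xist, the long noncoding RNA that silences an X chromosome in female cells, was at 1.95, 0.957 and 0.95 CPM against 13.3, 9.15 and 4.03 CPM (2.83 ± 0.42, adjusted p = 0.000565). Reads of Xist and of its antisense partner cannot be told apart here, since the handling of strand is not given. The LINE1 libraries spread more than 3-fold for Xist and hardly at all for Alox5.

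The largest stable falls by the same rule were smaller in size: Egln3, Psmb10, Krt42, Hk2, Ramp3, Tmsb4x, Pla2g10, Zfp428, Bst2, Tcea3, Igfbp4 and Commd5. Psmb10, a catalytic subunit of the immunoproteasome, was at 47.2, 78.3 and 55.5 CPM in RC siControl and 21.2, 24.1 and 35.1 CPM in LINE1 siControl (-1.17 ± 0.20, adjusted p = 0.0021). Tmsb4x, which binds actin monomers, was at 261, 432 and 216 CPM against 130, 150 and 190 CPM (-0.95 ± 0.19, adjusted p = 0.00558). Igfbp4, a binding protein of insulin-like growth factors, was at 19.3, 29.3 and 23.1 CPM against 12.9, 11.6 and 14.7 CPM (-0.87 ± 0.15, adjusted p = 0.0017). In all 3, RC siControl replicate 2 was the highest library, and the falls held without it. Of the 109 stable falls 5 reached a 2-fold change, as did 286 of the 448 stable rises.

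The libraries with siDux gave a second set of values for the same ASO comparison. There 340 genes rose (2.31%) and 110 fell (0.749%). Of the 448 stable rises under siControl 445 had the same sign under siDux and 210 were called (46.9%), with a median log2 change of 0.67 against 1.28. Leaving out the 2-cell list, 418 of 421 had the same sign and 187 were called (44.4%). All 109 stable falls had the same sign, 30 of them called (27.5%), with a median of -0.37 against -0.57. The members were chosen for their size under siControl, so smaller medians under siDux carry no test. The share of all genes with the same sign in both sets is not given here, so the sign counts lack a baseline.

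By gene, Egln3 under siDux was at 31.0, 48.7 and 26.3 CPM with RC ASO and 12.1, 19.9 and 12 CPM with LINE1 ASO (-1.26 ± 0.27, adjusted p = 0.0192). Ak4 was at 168, 146 and 149 CPM against 98.2, 110 and 103 CPM (-0.57 ± 0.09, adjusted p = 0.00189), and Hk2 at 376, 435 and 318 CPM against 198, 264 and 247 CPM (-0.67 ± 0.18, adjusted p = 0.0487). These 3 falls were called in both sets with no overlap. Bnip3 (-1.27 ± 0.36, adjusted p = 0.0598), Egln1 (-0.59 ± 0.16, adjusted p = 0.0585), Ldha (-0.42 ± 0.13, adjusted p = 0.0789) and Pfkfb4 (0.59 ± 0.21, adjusted p = 0.131) were not called there. Of the glycolysis list 7 of 23 fell under siDux and of the HIF targets 2 of 37, against 0.749% of all genes.

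Of the surface genes, Sdc4 (1.09 ± 0.17, adjusted p = 0.00217), Gja1 (0.64 ± 0.12, adjusted p = 0.0089), Tek (0.55 ± 0.13, adjusted p = 0.031) and Scn3b (1.47 ± 0.18, adjusted p = 0.00035) rose under siDux too. Egfr (0.58 ± 0.21, adjusted p = 0.134) and Bst2 (-0.38 ± 0.15, adjusted p = 0.182) did not pass. For Egfr the RC siDux libraries already stood at 17.5, 12 and 24.6 CPM, and for Bst2 at 30.7, 38.5 and 38.1 CPM, so the control level differed between the sets. The 11 largest rises named above were all called in both sets, and 4 of the 12 largest falls were: Egln3, Krt42, Hk2 and Igfbp4.

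The difference of the ASO effect between siControl and siDux was tested directly. No gene passed in edgeR (0.0% of 14696), with 491 at an unadjusted p under 0.05, and DESeq2 called 11. Of genes named here, those 11 include Cacna1e, Cpz, Plcd4 and Slc4a11, all with smaller rises under siDux. Their differences in log2 change in edgeR were -2.78 ± 0.53 for Cacna1e, -1.61 ± 0.36 for Cpz, -1.62 ± 0.31 for Plcd4 and -0.98 ± 0.21 for Slc4a11, with adjusted p from 0.186 to 0.448. Their RC siDux levels lay above RC siControl, for Cpz at 5.34, 5.12 and 10.4 CPM.

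**Figure D4:**
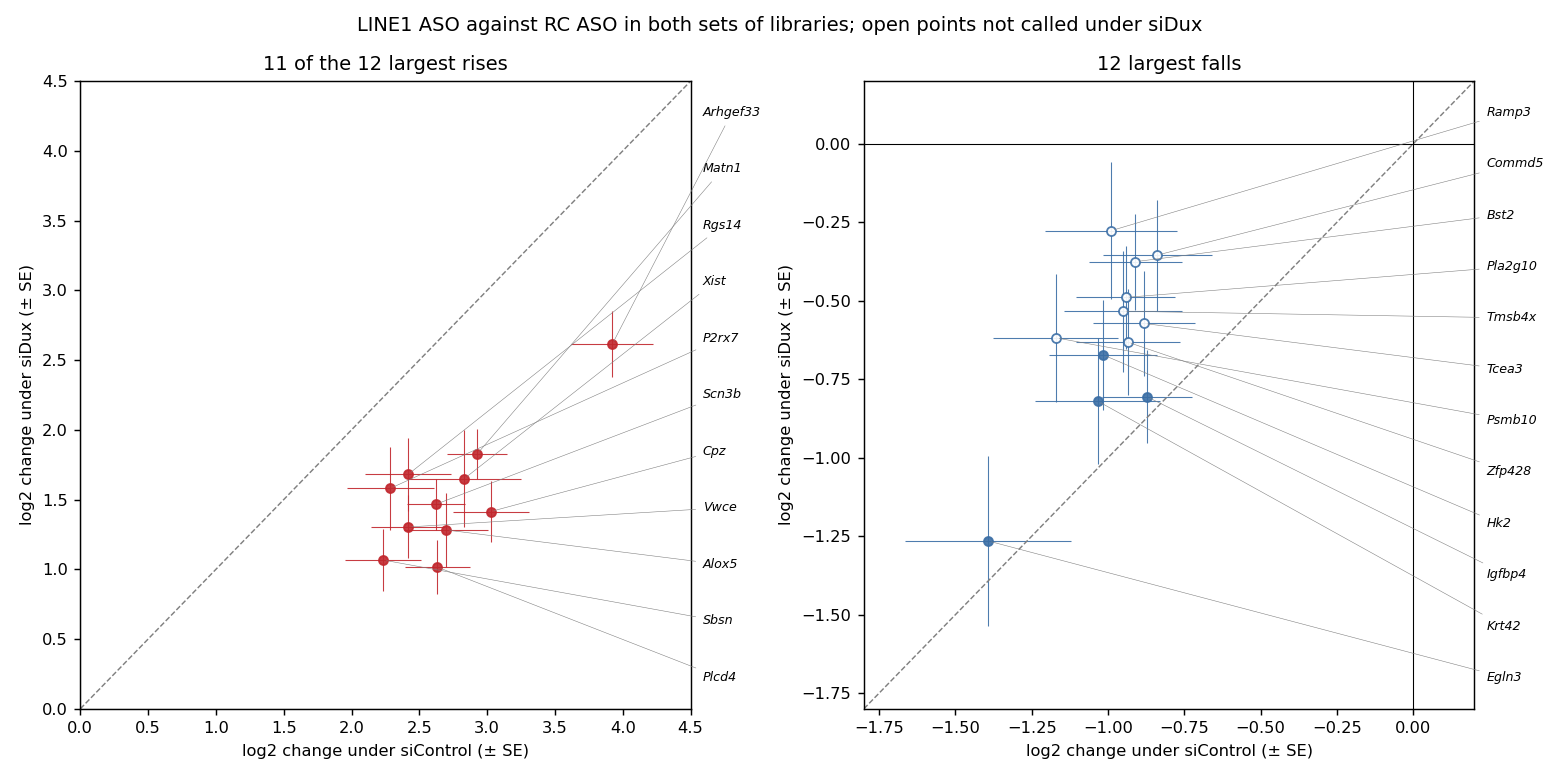
Log2 change with the LINE1 ASO under siControl (horizontal) and under siDux (vertical), with SE, for 11 of the 12 largest stable rises (left panel) and the 12 largest falls (right panel); the dashed line marks equal change and open points were not called under siDux. All 23 changes keep their sign, and Egln3 lies near the line (-1.39 and -1.26).

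Repeats shifted upward. Reads on repeats came to 6.70%, 5.81% and 6.20% of gene counts in RC siControl and 8.49%, 7.67% and 6.86% in LINE1 siControl, with no overlap (exact permutation p = 0.1, two-sided). Of 800 subfamilies tested 40 rose (5.0%) and 7 fell (0.875%), and 9 rises (1.12%) and 1 fall (0.125%) were stable. The median over all was 0.20. Without LINE1 siControl replicate 1 the counts were 10 and 1, and without RC siControl replicate 1 they were 82 and 23. With the repeat table's own totals in place of the gene totals, 27 rose and 26 fell. Values of near-identical subfamilies are uncertain, since the counting of reads that map to several copies is not described.

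The stable rises outside MERVL and MT2 were endogenous retroviruses. MMERGLN-int, the internal part of a murine leukaemia-virus-like family, was at 89.4, 68.9 and 98.1 CPM in RC siControl and 180, 154 and 154 CPM in LINE1 siControl (0.93 ± 0.12, adjusted p = 0.000122). MMERVK10C-int, of the class II retroviruses, was at 125, 132 and 94.0 CPM against 277, 204 and 201 CPM (0.96 ± 0.17, adjusted p = 0.0024). Both also rose under siDux (1.02 ± 0.12, adjusted p = 8.55e-05, and 0.77 ± 0.17, adjusted p = 0.0331), where 5 repeats rose (0.625%) and 1 fell (0.125%). With the repeat table's own totals they stayed called (0.76 and 0.79).

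RLTR6_Mm, a long terminal repeat of class I, was at 13.5, 17.8 and 10.4 CPM in RC siControl and 32.9, 28.1 and 25.2 CPM in LINE1 siControl (1.06 ± 0.16, adjusted p = 0.000691; siDux 0.40 ± 0.16, adjusted p = 0.354). IAPEz-int, the body of intracisternal A particles, was at 342, 358 and 354 CPM against 534, 483 and 532 CPM (0.56 ± 0.11, adjusted p = 0.00721), but with repeat totals the change was 0.40 and not called (adjusted p = 0.11). For comparison, MERVL-int of the 2-cell programme went from 651, 370 and 568 CPM to 2117, 1811 and 2048 CPM (1.91 ± 0.23, adjusted p = 4.05e-05). No subfamily differed in ASO effect between siControl and siDux (edgeR 0.0% of 800, 25 at an unadjusted p under 0.05, DESeq2 0).

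By group, 7 of 33 ERV1 subfamilies of the RLTR4 and RLTR6 kind rose (21.2%) and none fell, with 2 rises left without LINE1 siControl replicate 1 and 4 without replicate 2 or RC siControl replicate 3, and 12 without LINE1 siControl replicate 3. All 28 older mouse and rodent LINE1 subfamilies had fitted changes above 0 (median 0.49), and 3 were called, none of them without LINE1 siControl replicate 1, 13 without LINE1 siControl replicate 3 and 18 without RC siControl replicate 1. MMETn-int, the most abundant retroviral body named here, was at 9158, 6422 and 9718 CPM against 12730, 11150 and 10900 CPM (0.46 ± 0.13, adjusted p = 0.0438; 0.246, 0.0956 and 0.0921 without LINE1 siControl replicate 1, replicate 2 or RC siControl replicate 2). The B2 element B2_Mm1a, a short interspersed repeat, was at 875, 1019 and 618 CPM against 548, 548 and 656 CPM, with overlap (-0.52 ± 0.15, adjusted p = 0.0502). Of 163 simple repeats tested 5 fell (3.07%, against 0.875% of all repeats) and 1 rose (0.614%, against 5.0%). The stable fall, (CTCG)n, was at 17.2, 25.0 and 21 CPM against 13.6, 13.1 and 13.6 CPM (-0.65 ± 0.14, adjusted p = 0.00942).

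**Figure D5:**
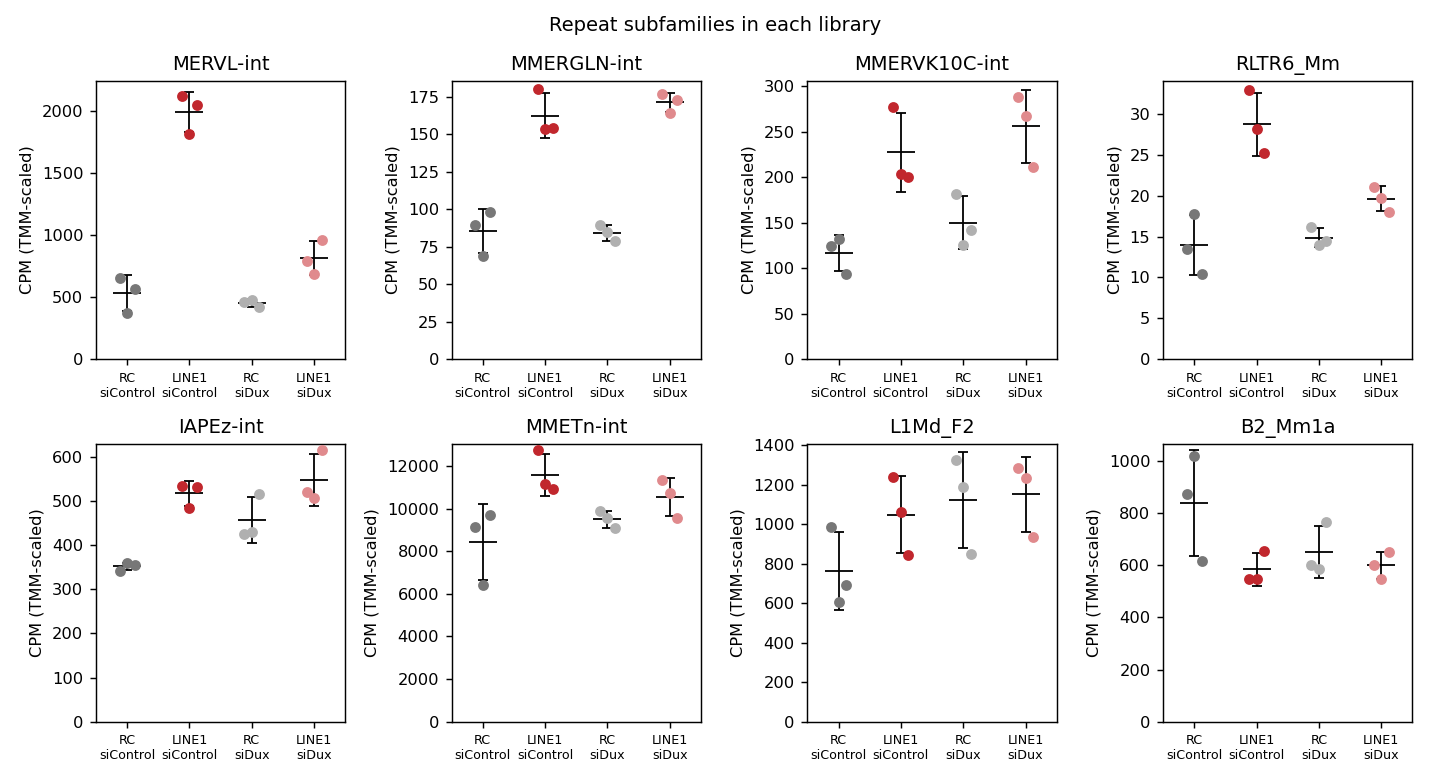
Level of 8 repeat subfamilies in each library (vertical axis, CPM over gene counts scaled by TMM, from 0) for RC and LINE1 ASO under siControl and siDux; points are libraries, bars the mean ± SD of 3. Under siControl the groups stand apart for MMERGLN-int (154 to 180 against 68.9 to 98.1 CPM) and overlap for L1Md_F2 and B2_Mm1a.

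Calls among markers of other cell types can be read against the 9.35% of all genes called higher and 9.69% called lower. These lists are short, so their shares are coarse. Among 10 primitive endoderm markers 2 rose, Cubn and Pdgfra, while the summed level was lower with the LINE1 ASO (326.5 to 334.1 CPM against 356.0 to 406.0 CPM). Fibroblast markers summed to 42.2 to 74.0 CPM in RC siControl and 51.0 to 54.7 CPM in LINE1 siControl, with 1 of 9 tested called higher (11.1%). Trophoblast (9 tested), neuroectoderm (6) and blood and endothelial markers (3) had no call, and of 7 mesoderm markers 1, Kdr, was called higher (14.3%). Hba-a1, an adult haemoglobin gene, had no count in any of the 6 libraries. The part of such cells in the results above was not tested.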

How the data were processed

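RNA-seq counts were used as deposited, in a table of 23284 genes with 92 ERCC spike-ins and one of 1217 repeat subfamilies. The authors deposited raw read counts. Per the labels' protocols, libraries were made with a directional mRNA-seq kit from total RNA. Per the submitters' processing notes, tools and build were Trim Galore 0.4.0, TopHat2 2.0.9, R 3.3.0, DESeq2 1.12.3 and mm9. The handling of strand and of multiply mapping reads in counting is not given in the sources at hand, and a gene and its antisense partner (Xist, for example) cannot be told apart. All 15 libraries matched a column (0 columns unused).

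Spike-ins entered neither the library sizes nor the tests. Genes passing filterByExpr (14696) were fitted in R 4.3.3 with edgeR 4.0.16 (TMM, quasi-likelihood test, 1 term per group over 15 libraries, 10 residual degrees of freedom). Repeats (800) used the gene table's sizes and factors. P-values were adjusted over each table, with a threshold of 0.05; errors of log2 changes are SE from the F statistic. Scripts were tested on simulated counts. Chi-square statistics between replicates were at least 3.1 per degree of freedom for every pair, so no libraries were merged.

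Named were up to 12 stable genes per direction with the largest change, at least 5 CPM in the higher group, no overlap and a proper gene name, up to 4 members per list, at most 6 repeats in each direction whose mean count reached 100, up to 2 per repeat group, and fixed genes. The members, the 34 gene lists and the repeat groups were chosen with earlier results of these data known; the group of simple repeats was added after the repeat names were seen. The transcript length of a gene is the median over all its transcripts in GENCODE M21, matched by symbol. Alternatives were RLE and ERCC scaling, other filters, the replicate block, the compared groups only, thinning, DESeq2 1.42.0, repeat totals and each library left out. Some genes that met the naming rule or a list's call are not reported here.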

Additional observations from a re-analysis of the deposited data

How the results depend on the processing

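Under siControl, the counts of genes called higher and lower stayed within 1.5 times of 1374 and 1424 with a filter of 5 CPM, no filter, RLE scaling, DESeq2, thinning and the replicate block (1950 and 1957), but were 278 and 2 with ERCC scaling and 364 and 32 in a fit on the compared groups only. Leaving out 1 library gave 473 to 1774 higher and 113 to 1833 lower. For repeats (40 and 7) the values were 1 and 0 with ERCC scaling, 6 and 0 with the compared groups, 107 and 23 with the replicate block, and 19, 11, 14 and 26 lower with DESeq2, RLE scaling, no filter and repeat totals, with 10 to 91 higher and 1 to 24 lower over the left-out libraries. The block also called 5 of the 6 L1Md subfamilies higher (0 without it) and 22 of the 28 older mouse and rodent LINE1 subfamilies (3 without it). With it 7 cadherin and junction genes (1 without it) and 6 Eph and ephrin genes (2 without it) were called higher. Under siDux, 340 genes higher became 571 with DESeq2, 38 with ERCC scaling and 766 with the block, and 110 lower became 336, 3 and 463, 348 with the compared groups and 70 thinned; leaving out 1 library gave 94 to 413 and 11 to 133. Repeats under siDux (5 and 1) became 10 and 3 with DESeq2, 0 and 0 with ERCC scaling, 10 and 2 with the compared groups, 8 and 2 with no filter and 11 and 2 with the block, with 1 to 6 and 0 to 2 over left-out libraries. The difference test called 1 gene higher and 10 lower in DESeq2, 1 lower with no filter, and 0 to 1 lower over left-out libraries. Causes were not tested. Uncalled values changed sign for Ddit4 (0.0422 with the 5 CPM filter, 0.32 with ERCC scaling, 0.0026 with the compared groups, 0.0067 with no filter, 0.0463 with the block, 0.0391 thinned, -0.19 to 0.18 over left-out libraries), Slc2a3 (0.16 with ERCC scaling, -0.11 to 0.0368), ZP3AR (-0.0112 with repeat totals), Cdh5 (-0.38 to 1.55) and Cdh1 (-0.0111 to 0.0571). Replicate numbers are shared by both groups; deviations of same-numbered libraries correlated by 0.0767, 0.153 and 0.215 under siControl and 0.063, 0.288 and 0.418 under siDux, not all above 0.1, and every siControl library correlated best with its own number, a hint from the data and not from the design.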

Other observations

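Further gene groups were counted under siControl. Of 12 tested host genes of small nucleolar RNAs 5 fell (41.7%) and none rose, with a median log2 change of -0.48. Snhg8 was at 25.5, 30.7 and 24.2 CPM in the RC siControl libraries and 17.7, 15.7 and 20.2 CPM in the LINE1 siControl libraries (-0.58 ± 0.17, adjusted p = 0.0266). None of the list was called without LINE1 siControl replicate 1, replicate 2 or RC siControl replicate 2. Heat shock and unfolded protein response genes had 6 falls and 1 rise among 36, and the rise, Sel1l, a subunit of the ER-associated degradation ligase, was the stable member (54.6, 58.8 and 58.1 CPM against 75.0, 72.9 and 69.7 CPM, 0.34 ± 0.07, adjusted p = 0.00766). No fall in it was called without LINE1 siControl replicate 1 or 2, and 1 without RC siControl replicate 2, while 14 were called without LINE1 siControl replicate 3 and 11 without RC siControl replicate 3.

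Imprinted genes were called 3 higher and 3 lower of 34 (8.82% each, near the shares of all genes), none of them stable and none called without LINE1 siControl replicate 1 or 2, and 6 were called lower without RC siControl replicate 3. Protocadherins had 2 rises among 22 tested (9.09%, near the 9.35% of all genes). Pcdh8, of the adhesion molecules of early mesoderm and neurons, had 1, 2 and 13 counts in the RC siControl libraries and 65, 61 and 57 in the LINE1 siControl libraries (2.88 ± 0.53, adjusted p = 0.00273), so 1 control library held most of the control reads.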
